A study of Oryctolagus cuniculus with 134 samples.

Results

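The genes described here belong to the p53 pathway and were chosen by name, as the rows of the deposited count tables whose gene symbol is MDM4, MDM2, CDKN1A, BAX, CCNG1 or GDF15. Of these 6 genes, 2 were found by symbol among 29587 genes, MDM4 (ENSOCUG00000000005) and BAX (ENSOCUG00000006423). MDM2, CDKN1A, CCNG1 and GDF15 were not matched by symbol and are not analyzed here. To place MDM4 and BAX in their pathway, 7 lists with 63 genes of the p53 response were read beside them, of which 42 genes were found. The RNA came from an aortic ring and all 4 heart valves of 27 male New Zealand White rabbits and made up 134 libraries. Each tissue had 7 libraries of chow-fed controls (Ctrl, 6 in the mitral valve), 6 of rabbits fed cholesterol at 0.3% (CHT), 7 of rabbits fed lard at 5% (Lard) and 7 of irradiated rabbits on the same cholesterol diet (IR/CHT). The CHT, Lard and IR/CHT rabbits also drank vitamin D2 at 25000 U per day, scaled to body weight, for the first 15 days. The IR/CHT rabbits received 24 Gy of X-rays in 3 fractions of 8 Gy, 48 h apart, after 8 weeks of the diet, with the beam aimed at the aortic valve and thoracic aorta. All rabbits entered the protocol at 12 weeks of age and tissues were taken after 16 weeks. The RNA was therefore taken weeks after the exposure, and irradiation was seen only on top of cholesterol and vitamin D2, since rabbits with irradiation alone or vitamin D2 alone are not analyzed here.

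The p53 protein is a transcription factor that is held at a low level in unstressed cells. MDM2 marks it for degradation, and MDM4, a close relative of MDM2, binds its activation domain and blocks it. After DNA breaks, the kinases ATM, ATR and CHEK2 modify p53 and its inhibitors, p53 accumulates, and genes for cell cycle arrest, DNA repair, metabolism and apoptosis are switched on. BAX is one of the apoptosis genes. Its protein opens the outer mitochondrial membrane and releases cytochrome c. Ionizing radiation is a classical activator of this pathway.

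Library totals ran from 13564979 to 50577676 counts, with a median of 18235577. Levels are given as CPM, the counts of a gene scaled to a common library size with TMM factors, one scale per tissue. A gene was called differentially expressed (DEG) at a Benjamini-Hochberg adjusted p under 0.05 in edgeR's quasi-likelihood test and a fold change over 1.5. Smooth muscle markers summed to between 10411 and 100625 CPM in the aorta and between 103 and 20564 CPM in the valves. The library at 20564 CPM was a pulmonary valve of IR/CHT (L176), and the next highest valve library was at 2705 CPM. In 4 libraries the profile stood apart, with a median Spearman correlation under 0.92 to their own group: a Ctrl aortic valve (L150), an IR/CHT pulmonary valve (L275), a Ctrl tricuspid valve (L168) and an IR/CHT tricuspid valve (L197). Plate 2 held every library of the aorta, and plate 1 every CHT library of 2 tissues, the mitral and the aortic valve. The 7 IR/CHT rabbits carried numbers of a separate series (L28), which none of the other rabbits carried, so that this series and irradiation cannot be told apart.

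MDM4, the p53 inhibitor, was compared first between the tissues of Ctrl rabbits, on one scale for all libraries. Its median was 149 CPM in the pulmonary valve and 139.6 CPM in the tricuspid valve, followed by 118 CPM in the mitral valve, 114 CPM in the aortic valve and 94.96 CPM in the aorta. The pulmonary and tricuspid valves were each higher than the other 3 tissues in every Ctrl rabbit, by 1.21-fold to 1.503-fold, and the pulmonary valve was 1.08-fold higher than the tricuspid valve, in 6 of 7 rabbits (adjusted p = 0.0481 in each, two-sided exact permutation of signs over rabbits, 20 tests over both genes, chosen after seeing the data). The mitral valve, aortic valve and aorta did not differ beyond the spread between rabbits, with adjusted p of 0.331 for mitral against aortic valve, 0.273 for mitral valve against aorta and 0.428 for aortic valve against aorta (exact tests). With library totals as the only scale the order was the same, but tricuspid against mitral valve was no longer past the threshold (adjusted p = 0.451) and mitral valve against aorta was (adjusted p = 0.0481, exact tests). Every aorta library was on plate 2, while the Ctrl valves were on both plates. Comparisons with the aorta therefore also carry the plate, for which these tests made no adjustment.

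**Figure D1:**
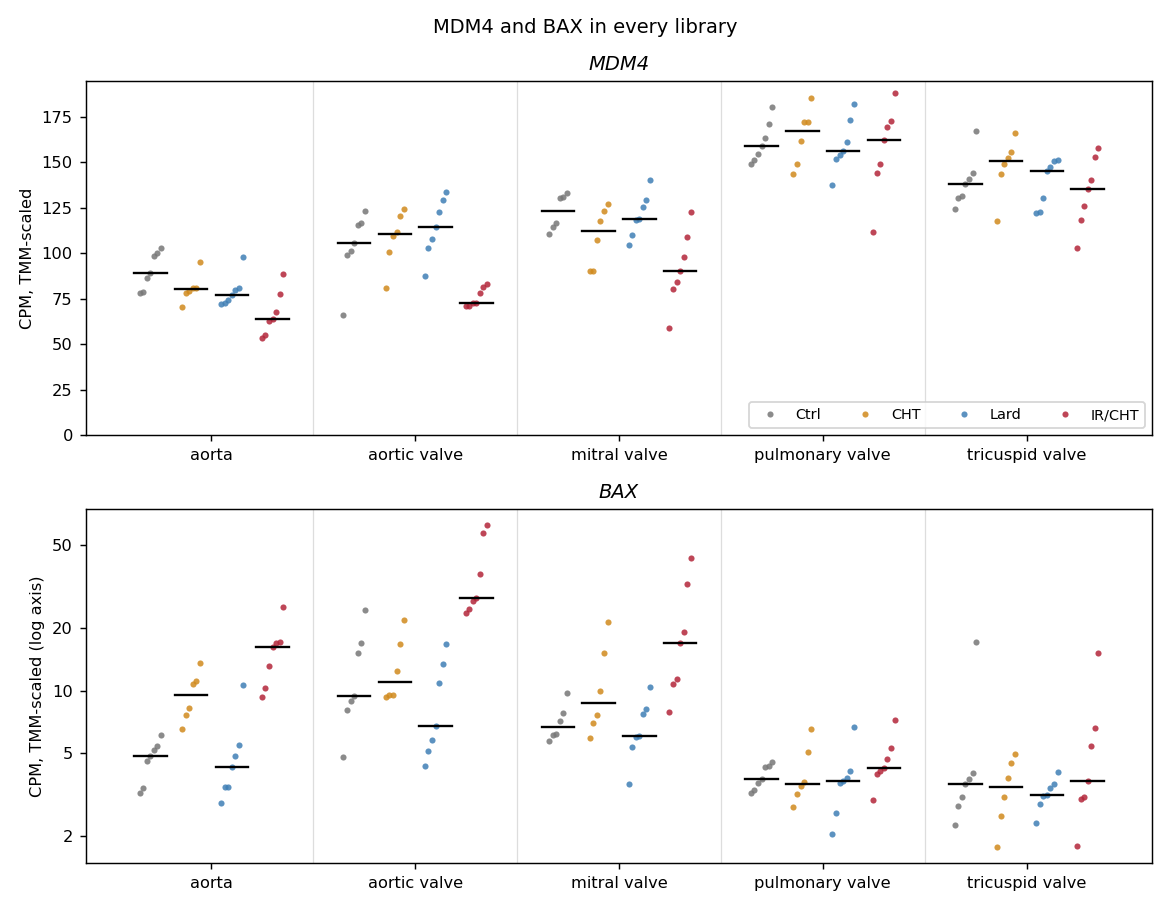
Levels of MDM4 (top, linear axis from 0) and BAX (bottom, log axis) in CPM on the scale of each tissue, 1 point per library, grouped by tissue and treatment, with the median as a black bar. In the aortic valve the 7 IR/CHT libraries lie between 70.7 and 83.0 CPM for MDM4 and between 23.5 and 62.6 CPM for BAX, while the pulmonary valve shows overlapping groups for both genes.

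Under irradiation MDM4 was lowest relative to CHT in the aortic valve. The IR/CHT libraries of the aortic valve ranged from 70.7 to 83.0 CPM with a median of 72.9 CPM, and the CHT libraries from 81.0 to 124 CPM with a median of 110.4 CPM. Of the IR/CHT libraries, 5 of 7 lay below every CHT library, and the other two overlapped only with the lowest CHT library (L265). The difference was −0.51 ± 0.13 on the log2 scale (SE), or 1.43-fold lower (adjusted p = 0.00496, edgeR). It passed the adjusted p-value but not the fold of 1.5, so MDM4 was not a DEG. By the adjusted p-value alone, 11.4% of 15408 genes tested were lower in this comparison. Over 21 alternative settings and left-out libraries the log2 difference stayed between −0.56 and −0.47, with adjusted p between 2.06e-04 and 0.0266. With the libraries of plate 1 alone it was −0.54.

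In the other tissues MDM4 gave smaller differences that did not pass the test. In the aorta the IR/CHT libraries ranged from 53.4 to 88.5 CPM (median 63.6) and the CHT libraries from 70.4 to 95.3 CPM (median 80.0), a log2 difference of −0.27 ± 0.11 (SE, adjusted p = 0.149, edgeR). Here too 5 of 7 IR/CHT libraries lay below every CHT library. In the mitral valve IR/CHT ranged from 58.9 to 123 CPM (median 90.0) and CHT from 90.2 to 127 CPM (median 112), with a difference of −0.25 ± 0.12 (SE, adjusted p = 0.394) and 4 of 7 libraries below every CHT library. The groups overlapped over most of their range in the pulmonary valve, with medians of 162 and 166.95 CPM and a difference of −0.07 ± 0.09 (SE, adjusted p = 0.675). The same was seen in the tricuspid valve, with medians of 135 and 150.7 CPM and a difference of −0.14 ± 0.10 (SE, adjusted p = 0.492). The 95% intervals ran from −0.25 to 0.12 in the pulmonary valve and from −0.35 to 0.06 in the tricuspid valve.

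Against Ctrl, MDM4 in IR/CHT passed the adjusted p-value in 3 tissues, again short of the 1.5-fold threshold. The log2 differences were −0.44 ± 0.10 in the aorta (adjusted p = 0.00100), −0.46 ± 0.13 in the aortic valve (adjusted p = 0.00366) and −0.42 ± 0.12 in the mitral valve (adjusted p = 0.0139, SE, edgeR), where 24.4%, 24.2% and 13.3% of all genes were lower by the adjusted p-value alone. In the aorta and the mitral valve, 6 of 7 IR/CHT libraries lay below every Ctrl library. None did in the aortic valve, where the Ctrl library L150, one of those that stood apart, had 65.8 CPM and the next lowest Ctrl library 99.2 CPM. Without L150 the aortic valve difference was −0.54 (adjusted p = 1.97e-04). The diets with vitamin D2, without irradiation, gave no difference in MDM4 past the threshold: the log2 values of CHT against Ctrl lay between −0.17 and 0.08 over the 5 tissues and those of Lard against Ctrl between −0.19 and 0.13. These comparisons share their Ctrl libraries.

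BAX, the apoptosis effector, had its highest Ctrl median in the aortic valve. In Ctrl rabbits, on one scale for all libraries, its median was 9.46 CPM in the aortic valve, 6.25 CPM in the mitral valve, 5.36 CPM in the aorta, 3.54 CPM in the tricuspid valve and 3.52 CPM in the pulmonary valve. The aortic valve exceeded the aorta 2.28-fold, the tricuspid valve 2.84-fold and the pulmonary valve 3.23-fold, and the mitral valve exceeded the tricuspid valve 2.09-fold and the pulmonary valve 1.89-fold, and the aorta the pulmonary valve 1.42-fold (adjusted p = 0.0481 in each, exact permutation of signs). Neighbors in this order did not differ beyond the spread between rabbits, with adjusted p of 0.134 for aortic against mitral valve, 0.167 for mitral valve against aorta, 0.417 for aorta against tricuspid valve and 0.875 for tricuspid against pulmonary valve (exact tests). With library totals as the only scale the last 2 tissues changed places, mitral valve against aorta passed (adjusted p = 0.0481) and aorta against pulmonary valve did not (adjusted p = 0.276, exact tests). As for MDM4, comparisons with the aorta also carry the plate.

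BAX rose in the irradiated aortic valve. The IR/CHT libraries ranged from 23.5 to 62.6 CPM with a median of 27.9 CPM, and the CHT libraries from 9.32 to 21.9 CPM with a median of 10.98 CPM. All 7 IR/CHT libraries lay above every CHT library. The log2 difference was 1.48 ± 0.37 (SE), a 2.79-fold increase (adjusted p = 0.00452, edgeR), and BAX was the only DEG of the 2 genes. In this comparison 19.7% of 15408 genes were DEGs, and 9.90% were DEGs with higher levels. BAX remained a DEG under all 21 alternatives, with log2 values between 1.31 and 1.72 and adjusted p between 3.36e-04 and 0.0163. With plate 1 alone the value was 1.43 (adjusted p = 0.0107).

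No other tissue gave a DEG among the 2 genes in IR/CHT against CHT, in which 0.596% of all genes were DEGs in the aorta and 0.189%, 0.0761% and 0% in the mitral, pulmonary and tricuspid valves. At an unadjusted p under 0.05 the tricuspid valve had 1323 of 14700 genes in edgeR, and DESeq2 gave 9 DEGs there. In the aorta BAX ranged from 9.38 to 25.2 CPM in IR/CHT (median 16.1) and from 6.58 to 13.6 CPM in CHT (median 9.49). The log2 difference was 0.68 ± 0.26 (SE, adjusted p = 0.146), and 4 of 7 IR/CHT libraries lay above every CHT library. In the mitral valve BAX ranged from 7.89 to 43.2 CPM in IR/CHT (median 16.9) and from 5.92 to 21.3 CPM in CHT (median 8.76), a difference of 0.85 ± 0.35 (SE, adjusted p = 0.297). Only 2 mitral libraries, at 32.5 and 43.2 CPM, exceeded every CHT library. In the pulmonary valve the medians were 4.25 and 3.58 CPM and the difference 0.17 ± 0.24 (SE, adjusted p = 0.673). In the tricuspid valve the medians were 3.67 and 3.45 CPM and the difference 0.68 ± 0.45 (SE, adjusted p = 0.488). There 1 IR/CHT library (L197) had 15.2 CPM and the next 6.61 CPM, and without the libraries that stood apart the difference was 0.20 ± 0.27 (SE, adjusted p = 0.750).

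BAX rose in the aorta in CHT against Ctrl, that is without irradiation. The CHT libraries ranged from 6.58 to 13.6 CPM and the Ctrl libraries from 3.22 to 6.15 CPM, without overlap. The log2 difference was 1.04 ± 0.27 (SE, adjusted p = 0.00435, edgeR), in a comparison where 19.4% of 14777 genes were DEGs and 14.2% were DEGs with higher levels. CHT and Ctrl overlapped in the aortic valve, with medians of 10.98 and 9.47 CPM and a difference of 0.09 ± 0.36 (SE, adjusted p = 0.880), and 11.9% of all genes were DEGs. The highest Ctrl value there, 24.3 CPM, was that of L150, which stood apart. Without L150 the aortic valve difference was 0.33 ± 0.35 (SE, adjusted p = 0.590, edgeR). CHT against Ctrl did not pass the test in the mitral valve either (0.65 ± 0.36, SE, adjusted p = 0.376), where 5.62% of all genes were DEGs. The pulmonary and tricuspid valves gave 0.09 and −0.60 on the log2 scale (adjusted p = 0.948 and 0.644), with 0.159% and 0.163% of all genes as DEGs. The value of −0.60 rested on the Ctrl library L168, at 17.2 CPM beside a next value of 4.04 CPM, and was 0.09 without the libraries that stood apart.

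Against Ctrl, BAX in IR/CHT was a DEG in the aorta (log2 difference 1.72 ± 0.26, 7 of 7 libraries above every Ctrl library), the aortic valve (1.57 ± 0.35, 6 of 7) and the mitral valve (1.4998 ± 0.36, 6 of 7, SE in each). The adjusted p-values were 6.89e-06, 6.16e-04 and 0.00259 (edgeR), and the share of all genes that were DEGs was 34.3%, 42.8% and 17.7%. In the aortic valve the Ctrl library L150 had 24.3 CPM, the next highest Ctrl library 16.9 CPM and the lowest IR/CHT library 23.5 CPM. Without L150 the difference there was 1.81 ± 0.36 (SE, adjusted p = 1.56e-04, edgeR). Neither gene was a DEG in the pulmonary valve, with 0.706% of all genes, or in the tricuspid valve, with 0.231%. Lard against Ctrl gave no DEG among the 2 genes in any tissue, with 2.61% of all genes as DEGs in the aorta, 0.234% in the aortic valve and 0% in the other 3 valves (with an unadjusted p under 0.05 in edgeR for 253 genes of the mitral, 360 of the pulmonary and 1200 of the tricuspid valve). In the aorta the Lard libraries ranged from 2.89 to 10.6 CPM for BAX with a median of 4.29 CPM, close to the Ctrl median of 4.88 CPM, and only 1 library (L578) exceeded every Ctrl library.

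**Figure D2:**
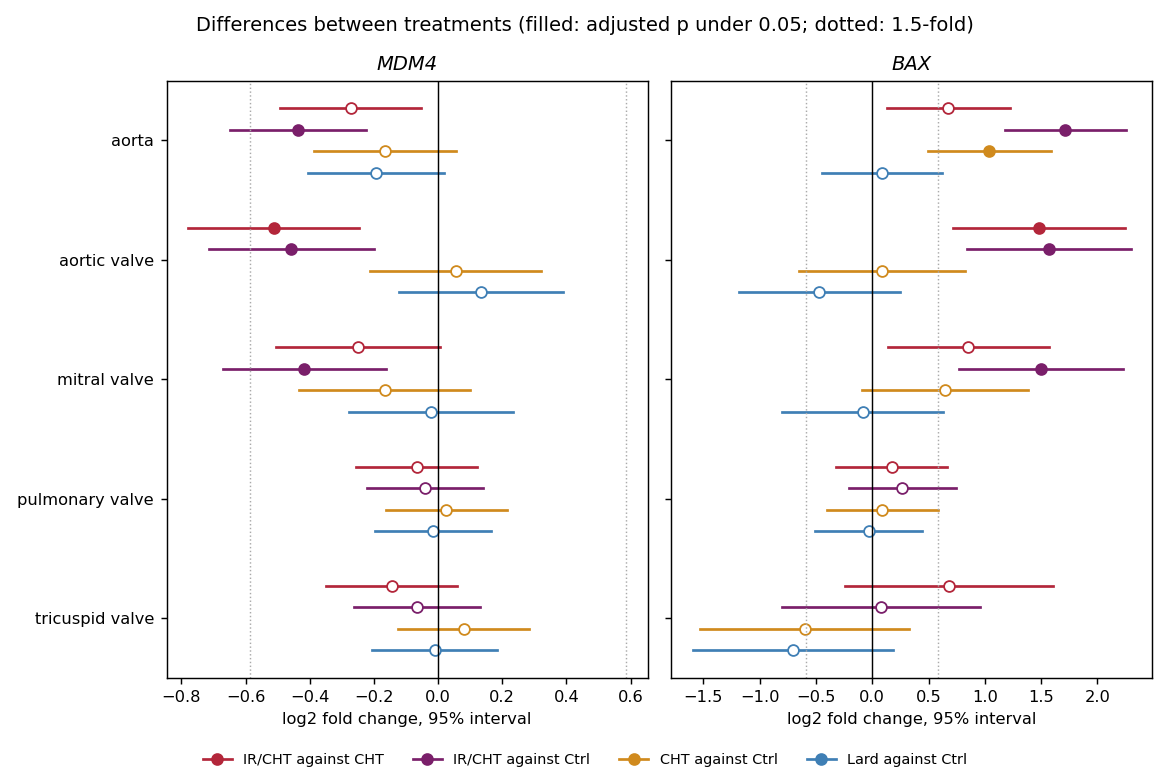
Log2 fold changes of MDM4 (left) and BAX (right) with 95% intervals, by tissue and comparison, on separate horizontal axes. Filled points have an adjusted p under 0.05 and dotted lines mark a fold of 1.5. For MDM4 every filled point lies inside the dotted lines, with values between −0.51 and −0.42, and for BAX the filled points lie between 1.04 and 1.72.

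Whether the response to irradiation differed between tissues was tested as an interaction, with the aortic valve as the reference. Against the pulmonary valve both genes passed: the log2 change of MDM4 was lower by a difference of −0.49 ± 0.16 (SE, adjusted p = 0.0305, edgeR) and that of BAX higher by 1.27 ± 0.44 (SE, adjusted p = 0.0460), where 13.9% of all genes passed. Neither call held with plate as a covariate (adjusted p = 0.0550 for MDM4 and 0.0919 for BAX) or without the filter on low counts (0.125 and 0.0564), and with the rabbit as a block MDM4 kept an adjusted p of 0.0326 and BAX had 0.0816 (limma). Against the tricuspid valve the differences were −0.39 ± 0.15 for MDM4 (adjusted p = 0.0834) and 0.78 ± 0.59 for BAX (adjusted p = 0.469), with 10.8% of all genes past the threshold. Without the libraries that stood apart, the MDM4 difference passed (−0.42, adjusted p = 0.0336). Against the aorta they were −0.31 ± 0.17 and 0.73 ± 0.46 (adjusted p = 0.299 and 0.395), with 6.20% of all genes, and against the mitral valve −0.32 ± 0.18 and 0.57 ± 0.50 (adjusted p = 0.463 and 0.728, SE in each), with 2.02%. The larger values in the aortic valve were therefore not shown to differ from those in the aorta or the mitral valve.

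In the rabbit assembly mOryCun1.1, which is not the one the counts were made on, the gene next to BAX is FTL, the light chain of the iron store ferritin, and their annotated ends share 15 bases. FTL was read after its values were seen. It rose beside BAX in the irradiated aortic valve, from a mean of 1552 CPM in CHT to 4544 CPM in IR/CHT (log2 difference 1.55 ± 0.31, SE, adjusted p = 6.49e-04, edgeR). Per 1000 FTL counts there were 8.94 ± 2.196 BAX counts in CHT and 8.48 ± 2.17 in IR/CHT in the aortic valve (SD, n = 6 and 7), and this ratio did not differ past the threshold (adjusted p = 0.830, two-sided exact permutation test, 10 tests, chosen after seeing the data). In the other 4 tissues it did not pass the test between IR/CHT and CHT either, with adjusted p between 0.341 and 0.830 (exact tests). Between CHT and Ctrl the ratio was lower in the aorta, at 7.17 ± 1.502 against 18.8 ± 5.34 (SD, n = 6 and 7, adjusted p = 0.00583, exact test), and in the aortic valve, at 8.94 ± 2.196 against 17.7 ± 3.04 (adjusted p = 0.00583, exact test). In the mitral valve it was 8.93 ± 2.52 in CHT and 13.7 ± 2.24 in Ctrl (SD, n = 6 in each, adjusted p = 0.0361, exact test). The pulmonary and tricuspid valves did not pass, with log2 ratios of CHT to Ctrl of 0.06 and −0.38 (adjusted p = 0.830 and 0.564, exact tests). Whether reads of FTL entered the BAX counts was not tested.

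**Figure D3:**
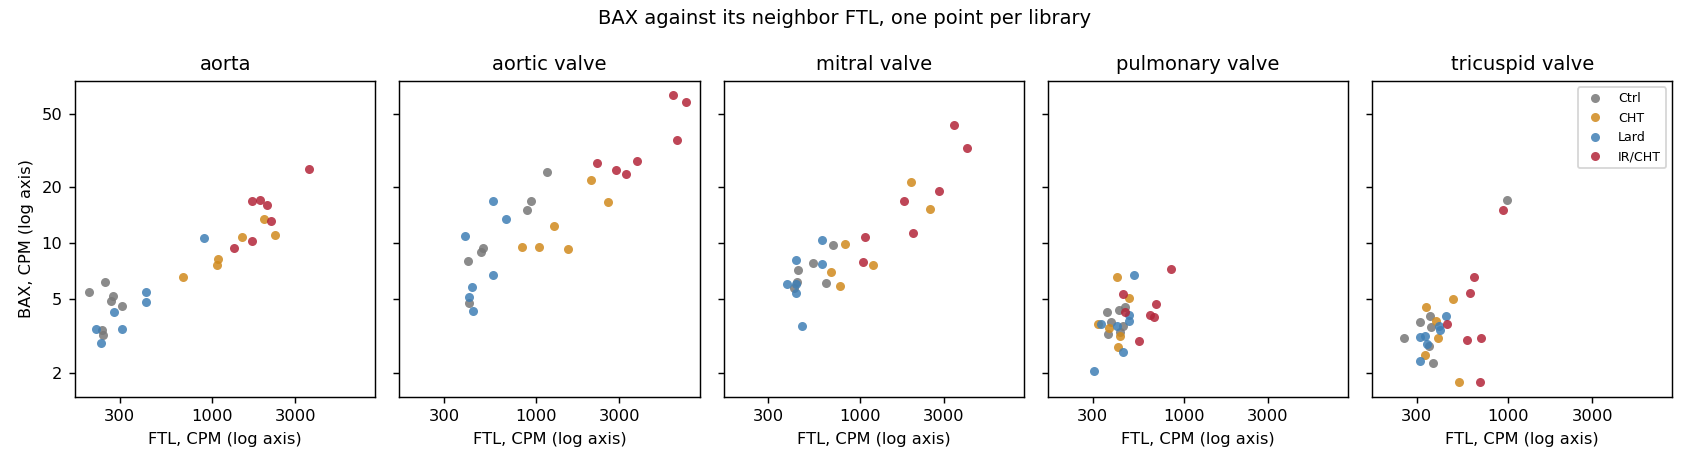
BAX against FTL in CPM on log axes, 1 point per library and 1 panel per tissue, colored by treatment. In the aortic valve the IR/CHT libraries lie at the upper right with 23.5 to 62.6 CPM of BAX, at a mean of 8.48 BAX counts per 1000 FTL counts beside 8.94 in CHT and 17.7 in Ctrl.

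MDM4 was one of 3 inhibitors of p53 found by symbol. The other two, the ubiquitin ligases RCHY1 and COP1, gave no DEG in any tissue in IR/CHT against CHT. RCHY1 had aortic valve means of 26.5 CPM in IR/CHT and 30.0 CPM in CHT (log2 difference −0.18 ± 0.35) and COP1 39.3 and 45.3 CPM (−0.20 ± 0.15, SE, adjusted p = 0.773 and 0.341, edgeR). Of 7 sensors and activators of p53, 1 was a DEG in the aortic valve (14.3%, beside 19.7% of all genes) and none elsewhere. TP53BP1, a scaffold protein that gathers at DNA breaks, fell in the aortic valve from a CHT range of 207 to 266.8 CPM to an IR/CHT range of 101 to 152.1 CPM. All 7 IR/CHT libraries lay below every CHT library, with a log2 difference of −0.75 ± 0.11 (SE, adjusted p = 2.69e-05). The checkpoint kinase CHEK2 had means of 8.41 CPM in IR/CHT and 4.73 CPM in CHT, a difference of 0.83 ± 0.35 (SE, adjusted p = 0.0889). In mOryCun1.1, the span of TP53BP1 overlaps that of TUBGCP4, so its counts carry that limit.

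Over all 7 lists, 13 genes rose and 1 fell in the aortic valve in IR/CHT against CHT, out of 39 that passed the filter on low counts. That is 33.3% with higher levels, beside 9.90% of all genes, and 35.9% in either direction, beside 19.7%. The median log2 difference was 0.35 over the lists and 0.02 over all genes tested. The lists were chosen with earlier results of these data known, and 3 found genes (RPRM, PMAIP1 and GLS2) had too few counts to be tested there. In the aorta 2 of 40 genes rose (5%, beside 0.162% of all genes with higher levels), in the pulmonary valve 1 of 38 (2.63%, beside 0.0761%), and in the tricuspid valve none of 39. In the mitral valve 1 of 40 fell (2.5%, beside 0.137% of all genes with lower levels).

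By role, the DEGs of the aortic valve in IR/CHT against CHT were spread over all groups of p53 target genes, beside 9.90% of all genes with higher levels. Of 5 tested genes for cell cycle arrest, GADD45A and PLK3 rose. GADD45A, a stress sensor that acts on repair and the cell cycle, went from 51.9 to 84.0 CPM (log2 difference 0.69 ± 0.15). PLK3, a stress-responsive kinase, went from 11.2 to 24.6 CPM (1.14 ± 0.31, SE in each). Of 6 apoptosis genes, BAX, ZMAT3 and TP53INP1 rose. Of 5 repair genes, DDB2 and XPC, which both recognize DNA damage for nucleotide excision repair, rose. Of 6 metabolism genes, SESN2, FUCA1, TIGAR and SCO2 rose, and TIGAR, which lowers glycolytic flux, went from 13.3 to 35.3 CPM (1.41 ± 0.28, SE). Of 7 other targets, EDA2R and PHLDA3 rose.

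The p53 lists were also read against Ctrl, in comparisons that share their Ctrl libraries. In CHT, 11 of 40 genes rose in the aorta (27.5%, beside 14.2% of all genes with higher levels), BAX, SESN2, GADD45A, PLK3, FUCA1 and TIGAR among them, and 6 of 39 rose in the aortic valve (15.4%, beside 8.42%). TIGAR was the only one to rise in the mitral valve (2.5%, beside 4.98% of all genes), and none rose in the pulmonary or tricuspid valve, where 0.159% and 0.163% of all genes were DEGs. In IR/CHT, 20 genes rose and 2 fell in the aorta (50% with higher levels, beside 22.2% of all genes), 16 rose and 2 fell in the aortic valve (41%, beside 21.1%), and 6 rose and 1 fell in the mitral valve (15%, beside 11.1%). In either direction the shares were 55%, 46.2% and 17.5%, beside 34.3%, 42.8% and 17.7% of all genes. DDB2, XPC, SCO2 and PHLDA3, which rose in the aortic valve against CHT, were not DEGs there against Ctrl. In the pulmonary and tricuspid valves no gene of the lists was a DEG, beside 0.706% and 0.231% of all genes. In Lard, EDA2R, STEAP3 and PLK3 rose in the aorta (7.5%, beside 2.61% of all genes) and no gene of the lists was a DEG in a valve.

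**Figure D4:**
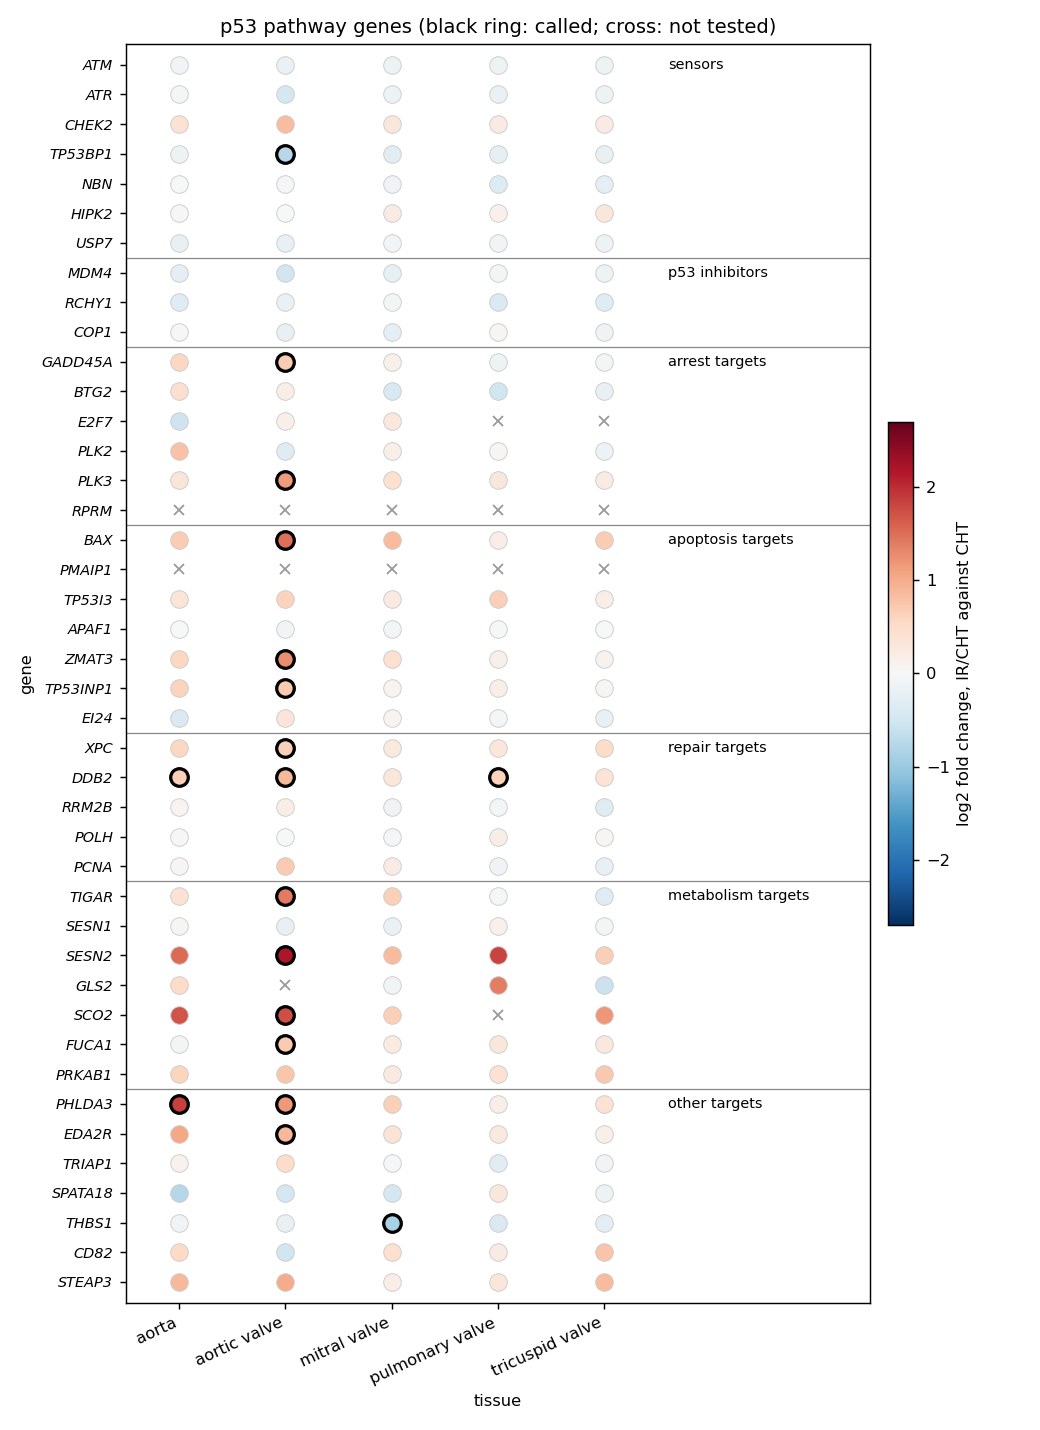
Log2 fold changes of IR/CHT against CHT for the 42 genes of the p53 lists found by symbol, by role (rows) and tissue (columns), with red for higher and blue for lower in IR/CHT. Black rings mark DEGs and crosses genes with too few counts. The aortic valve column holds 14 rings and the aorta 2, the mitral and pulmonary valves hold 1 each and the tricuspid valve none.

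DDB2, a damage-binding subunit of a ubiquitin ligase that acts in nucleotide excision repair, was a DEG in 3 tissues in IR/CHT against CHT. In IR/CHT against Ctrl, DDB2 was a DEG in the aorta alone. Its IR/CHT libraries ranged from 22.1 to 29.0 CPM in the aorta, from 28.6 to 42.2 CPM in the aortic valve and from 17.3 to 21.1 CPM in the pulmonary valve. The CHT libraries ranged from 14.1 to 18.6 CPM, from 16.2 to 23.4 CPM and from 10.7 to 15.5 CPM, so the groups did not overlap in any of the 3 tissues. The log2 differences were 0.65 ± 0.14 (adjusted p = 0.0288), 0.89 ± 0.15 (adjusted p = 1.40e-04) and 0.62 ± 0.13 (adjusted p = 0.0458, SE, edgeR). In the aorta it stayed a DEG in 14 of 18 alternatives, and was lost without any 1 of 3 CHT libraries (L560, L561 or L573) or the IR/CHT library L566, with adjusted p up to 0.0733. In the pulmonary valve it was lost in 16 of 22 alternatives, with adjusted p up to 0.209. The mitral valve gave 0.33 ± 0.12 (adjusted p = 0.257) and the tricuspid valve 0.37 ± 0.21 (adjusted p = 0.480), both with overlapping groups. None of the 4 interactions of DDB2 passed in edgeR, with adjusted p between 0.212 and 0.726. The tissues came from the same rabbits, and with the rabbit as a block in limma the DDB2 response was larger in the aortic than in the mitral valve (0.46 ± 0.15, SE, adjusted p = 0.0326), while the other 3 interactions did not pass.

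SESN2, a stress-induced inhibitor of mTORC1 signaling, rose in the aortic valve from a CHT range of 1.26 to 4.55 CPM to an IR/CHT range of 10.1 to 20.3 CPM (log2 difference 2.21 ± 0.33, SE, adjusted p = 3.70e-05, edgeR). In the aorta (1.52 ± 0.49, adjusted p = 0.0973) and the pulmonary valve (1.83 ± 0.41, adjusted p = 0.0712) all 7 IR/CHT libraries also lay above every CHT library, without passing the adjusted p-value. Both passed in 2 alternatives, DESeq2 (adjusted p = 0.0341 and 0.00272) and one model for all tissues (0.0233 and 0.0251), with adjusted p up to 0.231 and 0.241 over all alternatives. The pulmonary levels were low, at 0.157 to 0.597 CPM in CHT and 0.888 to 1.74 CPM in IR/CHT. No interaction of SESN2 passed in edgeR (adjusted p between 0.0751 and 0.750), but with the rabbit as a block those against the mitral valve (1.38 ± 0.33, SE, adjusted p = 0.00339) and the tricuspid valve (1.48 ± 0.50, SE, adjusted p = 0.0378, limma) did. ZMAT3, an RNA-binding protein and direct p53 target, also rose in the aortic valve, where its CHT libraries ranged from 19.5 to 38.8 CPM and its IR/CHT libraries from 43.2 to 85.6 CPM (1.25 ± 0.21, SE, adjusted p = 1.03e-04). In the aorta all 7 IR/CHT libraries lay above every CHT library, with a difference of 0.59 ± 0.15 and an adjusted p of 0.0516. It passed in 4 of 18 alternatives there (DESeq2, its size factors, and without IR/CHT L579 or L580), with adjusted p between 0.00815 and 0.131 over all of them. The ZMAT3 response was larger in the aortic valve than in the pulmonary valve (interaction 1.05 ± 0.22, adjusted p = 7.27e-04) and the tricuspid valve (1.11 ± 0.24, adjusted p = 0.00130, SE). Against the mitral valve it had an adjusted p of 0.09998 in edgeR and passed with the rabbit as a block (0.72 ± 0.16, SE, adjusted p = 0.00217, limma). Against the aorta it passed in neither fit (0.59 ± 0.24, SE, adjusted p = 0.133 in edgeR and 0.0773 with the block).

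PHLDA3, an inhibitor of AKT signaling, was a DEG in the aorta, from 1.24 to 5.11 CPM in CHT to 5.23 to 26.6 CPM in IR/CHT (log2 difference 1.84 ± 0.43, SE, adjusted p = 0.0405). It was also a DEG in the aortic valve, with overlapping groups (1.17 ± 0.43, adjusted p = 0.0482). The call was lost in 10 of 18 alternatives in the aorta and in 14 of 21 in the aortic valve, with adjusted p up to 0.113 and 0.247. THBS1, a matrix glycoprotein that blocks angiogenesis, fell in the mitral valve from 973 to 1954 CPM in CHT to 508 to 1322 CPM in IR/CHT (−0.87 ± 0.18, SE, adjusted p = 0.0286, edgeR). This call was lost in 10 of 20 alternatives, with adjusted p up to 0.295.

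**Figure D5:**
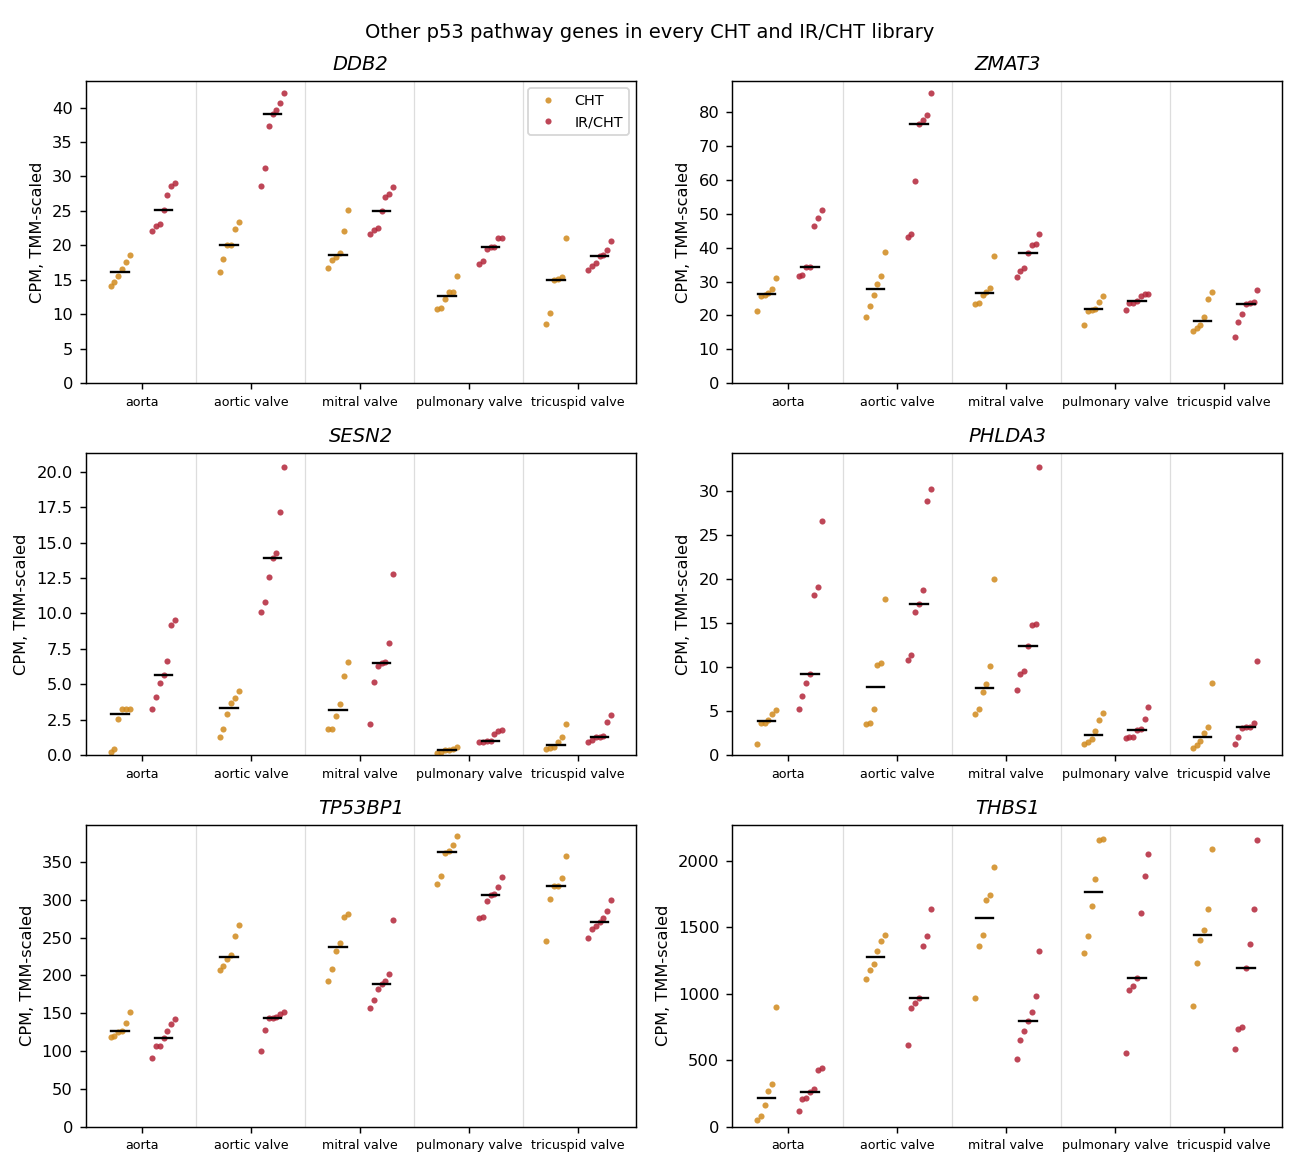
Levels of DDB2, ZMAT3, SESN2, PHLDA3, TP53BP1 and THBS1 in CPM (linear axes from 0) in each CHT and IR/CHT library by tissue, with the median as a black bar. In the aortic valve the groups are apart for DDB2 (up to 23.4 against at least 28.6 CPM), ZMAT3, SESN2 and TP53BP1, and they overlap for PHLDA3 and THBS1.

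Markers of other cell types moved with BAX and the p53 lists in the aortic valve, in the comparison where 9.90% of all genes were DEGs with higher levels and 19.7% in either direction. Of 8 macrophage markers, 6 rose in IR/CHT against CHT (CD68, MSR1, ITGAM, AIF1, CSF1R and CD14), and the summed level of all 8 was 806 to 1149.8 CPM in CHT and 2099.7 to 2801 CPM in IR/CHT, without overlap. CD68, a lysosomal protein of macrophages, went from a mean of 209.6 CPM to 726 CPM (log2 difference 1.79 ± 0.24, SE, adjusted p = 8.51e-06, edgeR). The scavenger receptor CD163 and the mannose receptor MRC1 did not pass, with log2 differences of −0.09 ± 0.51 and −0.43 ± 0.55 (SE, adjusted p = 0.923 and 0.638). Both T cell markers found, CD5 and CD2, rose, and their sum was 0.367 to 3.64 CPM in CHT and 3.96 to 22.2 CPM in IR/CHT. Of 3 neutrophil markers tested, S100A8 rose, at means of 0.0809 and 1.59 CPM. TBX20, a transcription factor of valve cells, and DCN fell among 6 markers of fibroblasts and valve interstitial cells, and MYOCD among 5 smooth muscle markers, of which 2 had positive differences. The fibroblast and valve interstitial sum overlapped, at 13352 to 20556 CPM in CHT and 11890 to 22285 CPM in IR/CHT. The smooth muscle sum was 480 to 1144 CPM in CHT (median 917) and 835 to 2705 CPM in IR/CHT (median 1293). TBX20 went from 215 to 73.8 CPM (−1.55 ± 0.23, SE, adjusted p = 2.71e-05). In bulk tissue, more cells of a type and more RNA per cell cannot be told apart, and the part of these cells in the levels of MDM4, BAX and the other genes was not tested.

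In the other tissues the macrophage sums overlapped between IR/CHT and CHT. They were 593 to 1762 CPM and 344 to 977 CPM in the aorta, 822 to 1651 CPM and 592 to 1106 CPM in the mitral valve, and 147 to 757 CPM and 422 to 688 CPM in the pulmonary valve. In the tricuspid valve they were 291 to 761 CPM and 434 to 654 CPM. The pulmonary value of 147 CPM was that of L275, which stood apart, and the next lowest IR/CHT library there had 585 CPM. Between Ctrl and CHT, where BAX rose in the aorta, the macrophage sum of the aorta was 43.5 to 197.1 CPM and 344 to 977 CPM. Between Ctrl and CHT in the aortic valve, where BAX overlapped, it was 156.7 to 529 CPM and 806 to 1149.8 CPM. Heart muscle markers did not overlap in the aorta, with 2.16 to 13.4 CPM in CHT and 17.9 to 2465 CPM in IR/CHT, or in the pulmonary valve, with 6.30 to 29.7 CPM and 49.7 to 1674 CPM, and all 3 tested rose in the aorta, beside 0.162% of all genes there. The heart muscle sums of Ctrl overlapped with IR/CHT in both, at 5.59 to 36.9 CPM in the aorta and 25.3 to 5344 CPM in the pulmonary valve. In Lard they were 6.63 to 30.2 CPM and 10.4 to 3468 CPM. Smooth muscle sums in the aorta were 28134 to 70647 CPM in CHT and 10411 to 53557 CPM in IR/CHT, and MYOCD fell there as well. Their part in the DDB2 and BAX values of these tissues was not tested. B cell markers were near 0 in every CHT and IR/CHT library, with sums up to 1.29 CPM. None of the 5 endothelial, 4 heart muscle, 2 red blood cell and 1 adipocyte markers tested in the aortic valve was a DEG in IR/CHT against CHT. In CHT against Ctrl, 3 of the 4 heart muscle markers (ACTC1, MYL2 and MYH7) fell there, beside 11.9% of all genes as DEGs in either direction.

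The highest BAX values came from few rabbits. Among the aortic valves, IR/CHT rabbits L28392 and L28389 had 62.6 and 57.4 CPM, and the next value was 36.2 CPM. The same rabbits had the 2 highest mitral values, 32.5 and 43.2 CPM, and L28392 the highest tricuspid value of its group, 15.2 CPM. In the aorta the highest value, 25.2 CPM, was that of L28389, whose aortic library also had the lowest MDM4 level of the group (53.4 CPM), the highest macrophage and heart muscle sums (1762 and 2465 CPM) and the lowest smooth muscle sum (10411 CPM). In the mitral valve L28389 likewise had the lowest MDM4 level, 58.9 CPM. The aortic valve libraries of these rabbits had the lowest correlations to their group, 0.928 and 0.934, and T cell sums of 22.2 and 21.2 CPM. Without either library, BAX remained a DEG in the aortic valve.

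Across all 134 libraries, with the mean of each tissue removed, the genes with a symbol that followed MDM4 most closely were OGT, DMTF1 and TTC17, with Pearson r of 0.867, 0.858 and 0.856 among 9678 genes. For BAX they were MINK1, KIAA0513 and DGKZ, with r of 0.898, 0.890 and 0.887. FTL ranked 53 for BAX, with r of 0.833, and had r of −0.668 with MDM4. These values are descriptions over libraries that share rabbits, treatments and plates.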

How the data were processed

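Total RNA of each tissue was made into libraries from 10 ng with a stranded kit and sequenced on a NovaSeq6000. Per the labels and the study's methods, the authors demultiplexed reads with bcl2fastq 2.20 (submitters' processing notes), ran the nf-core/rnaseq pipeline on OryCun2.0 with an Ensembl annotation, and deposited unnormalized counts per gene, 1 table for each of 2 plates. The study's methods give the pipeline's defaults apart from trimming and name no strand setting, so reads of overlapping or antisense genes may not have been told apart.

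The deposited counts of 29587 genes (14716 with a symbol) were read for 134 libraries, 67 on each plate. No 2 libraries were identical. Each of the 5 tissues was fitted on its own in edgeR 4.0.16 (R 4.3.3), with filterByExpr, TMM scaling and a robust quasi-likelihood fit of the 4 treatments without covariates, which left 14450 to 15408 genes. P-values were adjusted over all genes tested by the Benjamini-Hochberg method, and a gene was called at an adjusted p under 0.05 and a fold over 1.5. Differences between tissues were interaction terms, called by adjusted p alone. The step was tested on simulated counts. Treatments were given to different rabbits, with 6 or 7 per group. Rabbit numbers came from the column names.

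The members and lists were chosen with earlier results of these data known. Other genes named were, per tissue, up to 3 higher and 3 lower calls of the p53 lists with the smallest p in IR/CHT against CHT, the leading call of each other list in the aortic valve, and the 3 genes most like each member. Genes given beyond this rule (FTL, the remaining DEGs of the lists, CHEK2, RCHY1, COP1, CD163, MRC1) were named after their values were seen. Of the planned lists, 2 genes are not reported here and were left out of the list counts. Gene overlaps were read from the RefSeq annotation of mOryCun1.1, from which no coordinates are given. Alternatives were DESeq2 1.42.0, its size factors, no filter, plate as a covariate, each plate alone, only 2 groups, one model for all tissues, leaving out each library, and, for interactions, the rabbit as a block in limma. Leaving out the libraries that stood apart, the ratio to FTL and the levels on library totals were chosen after seeing the data. Library totals were 13564979 to 50577676 counts. BAX had 29 to 1085 counts per library, so its counting error is the larger of the 2 genes.

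Tissues of one rabbit deviated together. The correlation of deviations from the group means between the aortic valve and another tissue of the same rabbit had a median of 0.546 for the mitral valve, where it exceeded 0.1 in 26 of 26 rabbits. The medians were 0.255 for the aorta, 0.233 for the pulmonary valve and 0.290 for the tricuspid valve.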

Additional observations from a re-analysis of the deposited data

Results flagged for a closer look

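Within groups of 6 or 7 libraries, Dixon's test at the 95% level marked 18 of 160 groups of the named genes. Its level of 5% by chance applies to independent groups of normally distributed values. These groups share libraries and were tested as CPM without a log scale, so 5% is not their chance rate. For the 2 members, MDM4 was marked at 98.0 CPM in an aortic Lard library (L576) and at 65.8 CPM, the lowest value, in a Ctrl aortic valve (L150). BAX was marked at 10.6 CPM in an aortic Lard library (L578), at 17.2 CPM in a Ctrl tricuspid valve (L168) and at 15.2 CPM in an IR/CHT tricuspid valve (L197). The profiles of L150, L168 and L197 also stood apart from their groups. L168 was highest for DDB2 (33.6 CPM) and PHLDA3 (21.9 CPM) as well, and L197 for PHLDA3 (10.7 CPM).

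Other marked values of PHLDA3 were 19.99 CPM in a CHT mitral valve (L266), 32.8 CPM in an IR/CHT mitral valve (L179) and 8.24 CPM in a CHT tricuspid valve (L172). SESN2 was marked at 6.24 CPM in a Lard mitral valve (L544). THBS1 was marked at 65.8 CPM in a Ctrl aorta (L571) and 903 CPM in a CHT aorta (L574). In the Ctrl mitral valve L278, TP53BP1 was lowest at 239.3 CPM and ZMAT3 highest at 38.9 CPM, while TP53BP1 was marked at 273.5 CPM in an IR/CHT mitral valve (L175) and ZMAT3 at 37.5 CPM in a CHT mitral valve (L170).

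The response to irradiation differed between the aortic valve and another tissue, by the interaction in edgeR, in 2 cases for MDM4 and BAX and in 6 for the other named genes. MDM4 and BAX passed against the pulmonary valve, with differences of log2 fold change of −0.49 (adjusted p = 0.0305) and 1.27 (adjusted p = 0.0460). Both were lost without the filter (0.125 and 0.0564) and with plate as a covariate (0.0550 and 0.0919), and BAX also with the rabbit as a block (0.0816). TP53BP1 passed against all 4 other tissues, with −0.69 for the aorta, −0.52 for the mitral, −0.56 for the pulmonary and −0.59 for the tricuspid valve, but the mitral call (adjusted p = 0.0495) was lost with DESeq2 size factors (0.0977) and without the filter (0.101). ZMAT3 passed with 1.05 against the pulmonary and 1.11 against the tricuspid valve.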

How the results depend on the processing

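The number of DEGs among MDM4 and BAX was the same in 216 of 217 alternatives over the tissues and comparisons. In the mitral valve it was 0 in IR/CHT against Ctrl with plate 1 alone, beside 1. The number of members that passed the interaction against the pulmonary valve was 2, and it was 0 without the filter, 0 with plate as a covariate and 1 with the rabbit as a replicate block. Against the tricuspid valve it was 0, and 1 without the libraries that stood apart. Since every rabbit had 1 treatment, no paired analysis was possible because treatments share no rabbit, and the block was used between tissues only. For the other genes tested with it (DDB2, FTL, PHLDA3, SESN2, THBS1, TP53BP1 and ZMAT3), the block brought the interactions against the mitral valve past the threshold for DDB2 (adjusted p = 0.0326), ZMAT3 (0.00217) and SESN2 (0.00339), that of SESN2 against the tricuspid valve (0.0378) and that of FTL against the pulmonary valve (0.0489). It was fitted in limma and not in edgeR. The cause of these changes was not tested.

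The p53 lists had 2 DEGs in the aorta in IR/CHT against CHT (5%, beside 0.596% of all genes), and 1 without the filter, 7 with DESeq2, 1 with only 2 groups and 5 in one model. The shares of all genes under the alternatives are not set beside the counts of this paragraph. These counts therefore do not show whether the lists moved more than all genes did. The mitral valve had 1, and 0 with plate 1 alone, only 2 groups or one model. The pulmonary valve had 1, and 2 with DESeq2 and in one model, but 0 with DESeq2 size factors, no filter, either plate alone, only 2 groups, or without the libraries that stood apart. Leaving out 1 library at a time gave 0 to 6 in the aorta, 11 to 16 in the aortic valve, 0 to 1 in the mitral and pulmonary valves and 0 to 0 in the tricuspid valve. The aorta count was 0 without CHT L560, CHT L573 or IR/CHT L566, 1 without CHT L561, IR/CHT L565 or IR/CHT L582, and 6 without IR/CHT L579.

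Signs turned only for log2 differences that did not pass the test. Leaving out 1 library at a time gave −0.32 to 0.65 for THBS1 (positive without CHT L574 or IR/CHT L579) in the aorta. For PHLDA3 it gave −0.020 to 0.43 in the pulmonary valve (negative without IR/CHT L275) and −0.093 to 1.07 in the tricuspid valve (negative without IR/CHT L197). Without the libraries that stood apart PHLDA3 was −0.020 and −0.084 in these valves. With plate 2 alone BAX was −0.14 in the pulmonary valve, and THBS1 was 0.38 in the tricuspid valve. With plate 1 alone MDM4 was 0.037 and PHLDA3 −0.011 in the tricuspid valve.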

Other observations

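Genes outside the p53 lists were read in the aortic valve for 3 processes that can accompany a p53 response, in IR/CHT against CHT, where 9.90% of all genes were DEGs with higher levels. Of 5 senescence genes, GLB1 and LMNB1 rose. GLB1, the lysosomal beta-galactosidase, went from a mean of 169.1 CPM in CHT to 515 CPM in IR/CHT (log2 difference 1.61 ± 0.20, SE, adjusted p = 5.46e-06, edgeR), with all 7 IR/CHT libraries above every CHT library. LMNB1, a nuclear lamina gene known to be lost in senescent cells, went from 22.0 to 41.9 CPM (0.93 ± 0.22, SE, adjusted p = 0.00241). Of 8 proliferation genes tested, BUB1 and RRM2 rose, and BUB1, a mitotic checkpoint kinase, went from 3.72 to 7.08 CPM (0.93 ± 0.29, SE, adjusted p = 0.0218). Of 4 tested genes of the stress response, ATF3, a transcription factor that cellular stress induces, rose from 123 to 265.15 CPM (1.10 ± 0.33, SE, adjusted p = 0.0166), with 4 of 7 libraries above every CHT library. Without irradiation, in CHT against Ctrl, 3 of 5 senescence genes (GLB1, LMNB1 and CDKN2B), 7 of 8 proliferation genes (BUB1 and RRM2 among them) and ATF3 had also risen in the aortic valve, beside 8.42% of all genes, and 4 of 5 and 8 of 8 genes of the first 2 lists in the aorta, beside 14.2%. In the mitral valve 2 of 5 senescence genes (GLB1 and LMNB1) and ATF3 had risen as well, beside 4.98% of all genes. None of these 3 lists held a DEG in another tissue in IR/CHT against CHT.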
